A study of Ovis aries with 6 samples.

Results

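The genes described here encode the proteasome, the protease that degrades ubiquitin-tagged proteins, and the E2 ubiquitin-conjugating enzymes that help attach the tag. They were taken by symbol, as every gene named PSMA to PSMG with a number and every gene whose name begins with UBE2. The table held 64 such genes (42 PSM and 22 UBE2) among 11285 genes with a symbol, and 60 of the 64 averaged at least 1 RPKM over the 6 libraries and were measured. RPKM is the number of reads per kilobase of transcript, scaled to the library's total reads. Each gene entered by its transcript of highest mean RPKM.

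A protein is marked for degradation in steps. An E1 enzyme activates ubiquitin, an E2 enzyme receives it, and an E3 ligase directs its transfer to the target. The 26S proteasome then binds the ubiquitin chain. Its 19S cap recognises, unfolds and deubiquitinates the target, and its barrel-shaped 20S core cuts it into peptides. Immune cells exchange the 3 cutting subunits of the core for PSMB8, PSMB9 and PSMB10, which form the immunoproteasome, a producer of peptides for presentation on MHC class I molecules.

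The RNA came from milk somatic cells, the mixture of shed mammary epithelial cells and leukocytes that is pelleted from milk. The linseed group was 3 Comisana ewes fed hay and a concentrate for 3 weeks in which extruded linseed made up 20% of dry matter, and the control group was the same 3 ewes during the preceding 3 weeks on hay and a commercial concentrate without it. The ewes were at day 90 of lactation. Each ewe gave 1 library to each group, and every ewe received linseed second, so diet and time cannot be told apart. No p-value here covers that difference in time. Sheep numbers below are those in the sample titles, and the same number in both groups was taken as the same ewe.

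The libraries differed from each other in ways that run across both groups. Linseed sheep 1, 2 and 3 had 4941935, 5978026 and 19912996 reads, against 22644050, 8805705 and 10602801 reads in control sheep 1, 2 and 3. Milk protein genes held 34.8, 28.8 and 1.87% of all RPKM in linseed sheep 1, 2 and 3, against 58.9, 40.6 and 7.83% in control sheep 1, 2 and 3. With milk protein genes removed, the median read lay on a transcript of 1125, 1405 and 1790 nt in linseed sheep 1, 2 and 3, against 2191, 1590 and 2634 nt in control sheep 1, 2 and 3. The linseed library of each ewe thus read shorter transcripts than its control library. The part of this shift in the results below was not tested, beyond the values with a correction for transcript length.

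Several cell types were present. Summed RPKM of 5 macrophage markers (CD68, CD14, C1QA, TREM2 and MRC1) was 775, 946 and 1369 in linseed sheep 1, 2 and 3, against 90.7, 550.1 and 433 in control sheep 1, 2 and 3. For 7 neutrophil markers, S100A8 and S100A9 foremost, the sums were 3189.9, 2580.1 and 2369 RPKM in linseed libraries, against 424, 791 and 1041 RPKM in control libraries. Both sums were higher in all 3 linseed libraries than in any control library. The single markers did not all go that way. Of the 5 macrophage markers 3 were higher and 1 lower with linseed in every sheep, and of the 7 neutrophil markers 4 were higher and 1 lower. In each of these lists only 2 markers had all linseed libraries above all control libraries. The 4 T and NK cell markers summed to 78.1, 55.9 and 119 RPKM in linseed libraries, against 6.94, 148 and 487 RPKM in control libraries, and these ranges overlapped. Of the defining markers, MRC1 was at 0 in linseed sheep 1, and the 1 erythrocyte marker matched was at 0 in every library. Control sheep 1 had the lowest sum in each of these 3 leukocyte lists. Of 6 mammary epithelial markers, the caseins CSN2 and CSN3 among them, none was higher and 4 were lower with linseed in every sheep, and of 4 B and plasma cell markers 2 were higher and 1 lower.

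No member passed the test. With limma on log2(RPKM + 1) over 15891 transcripts and Benjamini-Hochberg adjustment, 0 of the 60 members had an adjusted p under 0.05, where 0% of all transcripts tested were called higher and 0% lower. The smallest adjusted p of a member was 0.263. At an unadjusted p under 0.05, 12 members (20.0%) were higher with linseed, beside 8.5% of all tested transcripts, and 6 members (10.0%) were lower, beside 7% of all. When the sheep was added as a block, 1.28% of all tested transcripts were called higher and 1.34% lower, none of them a member. The smallest adjusted p of a member under the block was 0.0532. At an unadjusted p under 0.05 with the block, 13 members (21.7%) were higher and 11 (18.3%) lower, beside 12.7% and 14.3% of all. Both directions together made 15.5% of all tested transcripts without the block and 27% with it.

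Read sheep by sheep, the members separated the animals. In sheep 1 and sheep 2, 24 and 25 of the 60 members were higher in the linseed library than in the control library, 40.0% and 41.7%. In sheep 3 it was 48 of 60, or 80%. Over all tested transcripts the shares were 50.5, 51.3 and 42.5% in sheep 1, 2 and 3. The median log2 difference of the members was −0.23, −0.33 and 0.85 in sheep 1, 2 and 3, against 0.02, 0.03 and −0.22 over all tested transcripts. Sheep 3 therefore stood apart for these genes, and for the PSM genes above all: 35 of 39 were higher with linseed in sheep 3, against 19 in sheep 1 and 20 in sheep 2. Less RNA per cell and fewer cells of a type cannot be told apart in such bulk samples.

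Over the 3 sheep, 21 members (35.0%) were higher with linseed in every animal, beside 23% of all tested transcripts, and 12 (20.0%) were lower in every animal, beside 26.2%. Linseed libraries lay above all control libraries for 17 members (28.3%), beside 13.3% of all, and below them for 4 (6.67%), beside 7.83%. The 17 were PSMB1, PSMB3, PSMB6, PSMB8, PSMB10, PSMC3, PSMC4, PSMC5, PSMD4, PSMD8, PSMD13, PSME1, PSMG3, PSMG4, UBE2D4, UBE2G2 and UBE2S. The 4 were PSMC6, PSMD12, UBE2J1 and UBE2Q2. These shares against the background varied with scaling. After quantile normalization 8 members (13.3%) lay above, beside 14% of all, and 7 (11.7%) below, beside 11.4%. With milk proteins left out of the totals 7 (11.7%) lay above, beside 8.87%, and 9 (15.0%) below, beside 18.5%. After length correction 11 (18.3%) lay above, beside 13.7%, and 3 (5.00%) below, beside 12.4%. Without sheep 3, 17 (28.3%) lay above and 22 (36.7%) below, beside 31.1% and 29.9% of all. The median log2 change of all tested transcripts was −0.12 as deposited, −0.01 once the libraries were quantile-normalized and −0.36 when milk proteins were left out, and that of the members was 0.09, −0.14 and −0.24 in the same order. Among quantile normalization, milk proteins left out and length correction, PSMA5, PSMB4, PSMB7, PSMD2, UBE2J2 and UBE2N turned from higher to lower under at least 1, and UBE2C and UBE2D3 from lower to higher.

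**Figure D1:**
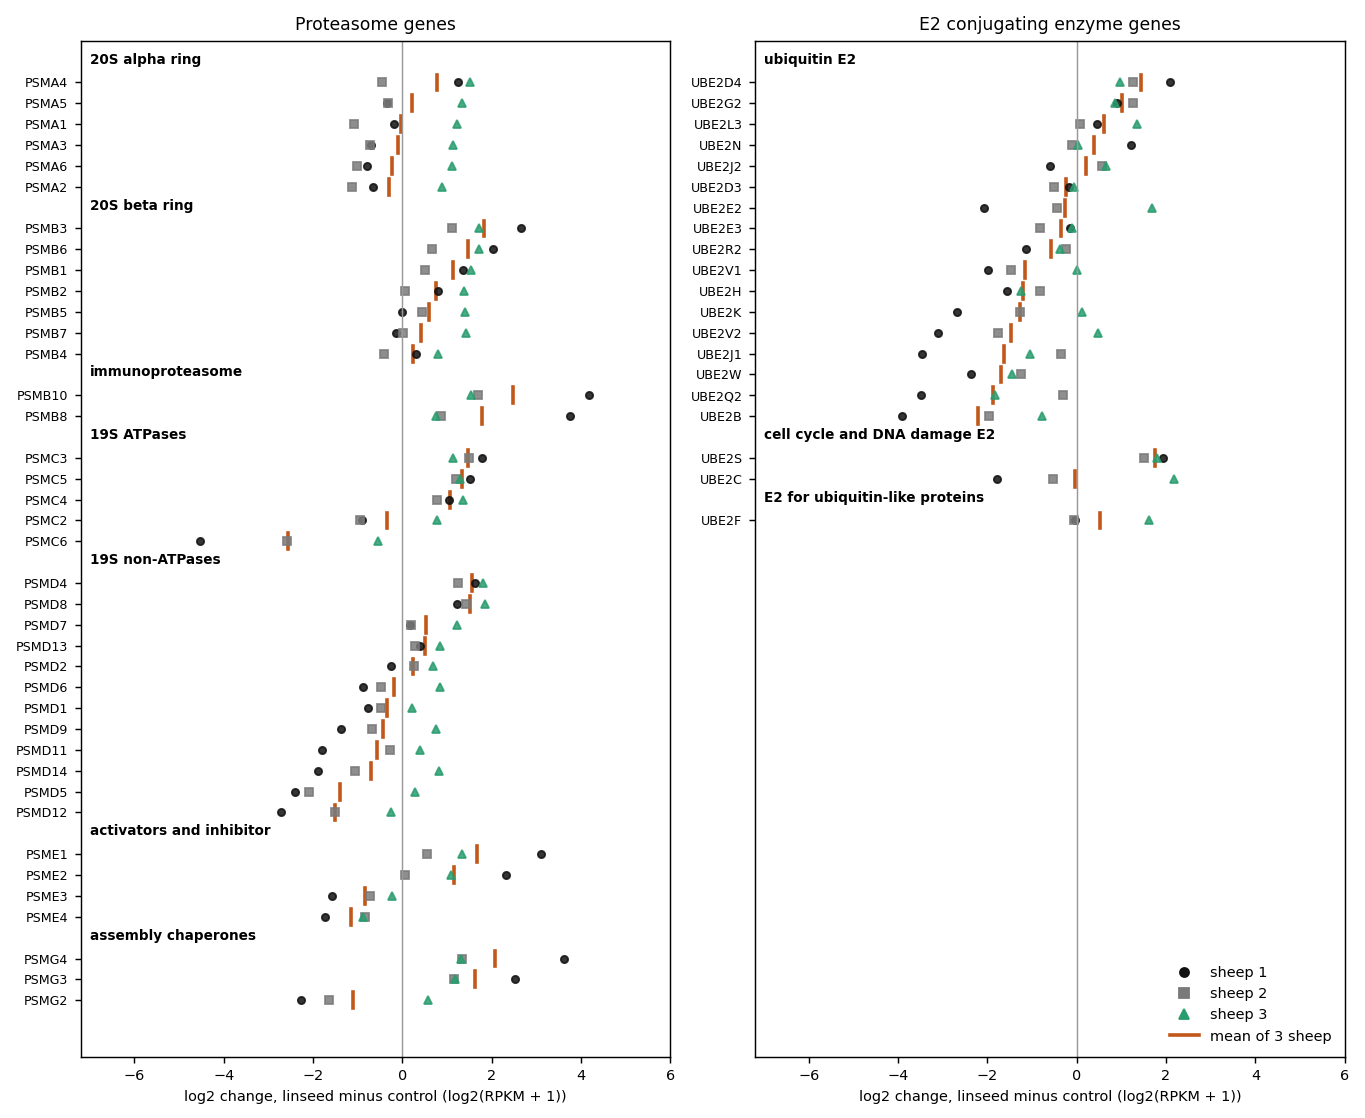
Log2(RPKM + 1) difference, linseed minus control, of 59 of the 60 measured members within each of the 3 sheep (points), with their mean (bar), grouped by role. Most PSM points of sheep 3 lie above 0, while those of sheep 1 and sheep 2 spread to both sides, from PSMC6 at −4.53 to PSMB10 at 4.17 in sheep 1.

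The 20S core opens with its alpha ring, which gates entry to the barrel. None of its 6 measured subunits was higher or lower in all 3 sheep, and their median log2 change was −0.06, beside −0.12 over all tested transcripts. All 6 were higher with linseed in sheep 3, at a median of 1.17, and the medians in sheep 1 and sheep 2 were −0.50 and −0.87. PSMA4 had the smallest p of the ring. It stood at 64.6, 74.4 and 143 RPKM in linseed sheep 1, 2 and 3, against 26.5, 102 and 49.2 RPKM in control sheep 1, 2 and 3. The groups overlapped, with a log2 change of 0.77 ± 0.68 (SE of the limma fit, as for every change below). The other log2 changes were −0.02 for PSMA1, −0.29 for PSMA2, −0.10 for PSMA3, 0.22 for PSMA5 and −0.23 for PSMA6. The ring's subunits stayed close to one another within a library: the highest was 2.14, 2.68 and 1.86 times the lowest in linseed sheep 1, 2 and 3, against 3.08, 1.6 and 1.61 times in control sheep 1, 2 and 3.

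The beta ring carries the cutting sites. Of its 7 constitutive subunits, 4 were higher with linseed in all 3 sheep and none was lower, and the group had a median change of 0.75 on the log2 scale. PSMB3, a structural subunit, had 459, 394 and 270.2 RPKM in linseed sheep 1, 2 and 3, against 72.3, 181 and 81.8 RPKM in control sheep 1, 2 and 3. Its lowest linseed library was above its highest control library, and its log2 change was 1.83 ± 0.62 with an adjusted p of 0.264.

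The constitutive cutting subunits are PSMB6, PSMB7 and PSMB5, which carry the caspase-like, trypsin-like and chymotrypsin-like activities. PSMB6 stood at 303, 272 and 205 RPKM with linseed and at 73.1, 172 and 61.7 RPKM under control, and the groups did not overlap; its log2 change was 1.47 ± 0.62. PSMB7 was nearly equal in both libraries of sheep 2, with 74.6, 122.9 and 151.9 RPKM with linseed and 82.8, 122.8 and 56.2 RPKM under control, and its log2 change was 0.42 ± 0.61. PSMB5 had 41.4, 62.7 and 63.6 RPKM with linseed and 41.7, 46.4 and 23.6 RPKM under control, with a log2 change of 0.60 ± 0.59. For PSMB5 and PSMB7 the gap between groups came mostly from sheep 3. Among the remaining subunits the log2 change was 1.13 ± 0.61 for PSMB1, 0.75 ± 0.62 for PSMB2 and 0.23 ± 0.61 for PSMB4, and none passed. The log2 change of PSMB7 was −0.01 after quantile normalization, and that of PSMB4 was −0.29.

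Both immunoproteasome subunits with a row were higher with linseed in all 3 sheep. PSMB10, which replaces PSMB7, had the smallest p of any member. It stood at 139.7, 129 and 97.4 RPKM in linseed sheep 1, 2 and 3, against 6.82, 39.2 and 32.9 RPKM in control sheep 1, 2 and 3. Every linseed library was above every control library, and the means were 122 ± 22.0 RPKM with linseed and 26.3 ± 17.2 RPKM under control (SD, n = 3 each). The log2 change was 2.47 ± 0.72, with an adjusted p of 0.263, and 0.0532 with the sheep as a block. After quantile normalization the change was 2.15, after length correction 2.27 and with milk proteins left out 2.17; without sheep 1 it was 1.61.

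PSMB8, which replaces PSMB5, was the most abundant member by mean level per length. It had 401, 347 and 505 RPKM in linseed sheep 1, 2 and 3, against 29.0, 192 and 299 RPKM in control sheep 1, 2 and 3. The groups did not overlap, but control sheep 1 was far below the other control libraries, and the within-sheep log2 differences were 3.74, 0.85 and 0.75. The log2 change was 1.78 ± 0.83, with an adjusted p of 0.331, and it was 0.80 without sheep 1. PSMB9, the third immunoproteasome subunit, was not matched to a row and is not analysed here. In control sheep 1, where PSMB8 and PSMB10 were lowest, the leukocyte marker sums given above were lowest too, and the part of cell composition in these differences was not tested.

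The RNA of an immunoproteasome subunit can be set against that of its counterpart as a ratio within a library, which scaling of the library leaves almost unmoved. Such a ratio does not measure exchange of subunits in the core, and the part of cell composition in it was not tested. On the log2 scale the ratio of PSMB10 to PSMB7 was 0.90, 0.07 and −0.64 in linseed sheep 1, 2 and 3, against −3.42, −1.62 and −0.76 in control sheep 1, 2 and 3. The linseed values all lay above the control values, by 2.04 on average, and the two-sided exact permutation p was 0.1, the smallest that 3 against 3 libraries allow (0.2 after adjustment over the 2 ratios). Sign flips within the 3 animals, which keep the pairing, gave an exact p of 0.25, the smallest they allow. The ratio of PSMB8 to PSMB5 was 3.25, 2.45 and 2.97 in linseed libraries, against −0.51, 2.02 and 3.61 in control libraries. These overlapped, and the exact permutation p was 0.5 both before and after adjustment, with an exact sign-flip p of 0.75. The difference of 1.18 for PSMB8 over PSMB5 rested on control sheep 1: without sheep 1 it was −0.11, and without control sheep 1 alone it was 0.07. For PSMB10 over PSMB7 the difference stayed between 0.90 and 3.00 whichever library or sheep was left out. It also differed between animals: it was 0.90 without sheep 1 and 3.00 without sheep 3. In sheep 3 the linseed and control ratios, −0.64 and −0.76, were nearly level.

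**Figure D2:**
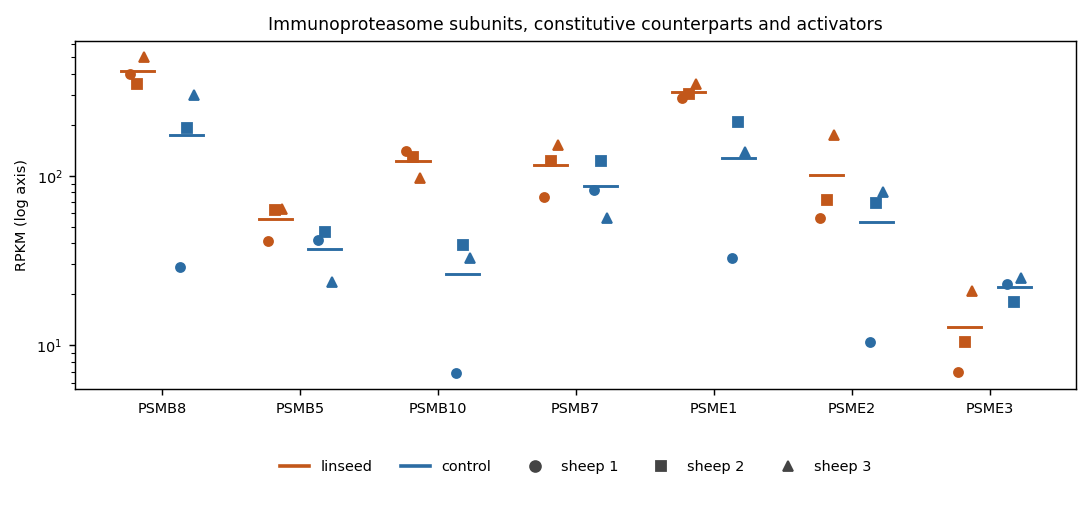
RPKM on a log axis of PSMB8 and PSMB10 of the constitutive subunits they replace, PSMB5 and PSMB7, and of the activators PSME1, PSME2 and PSME3, with the group mean as a bar and linseed libraries left of control libraries and sheep marked singly. PSMB10 and PSMB8 are lowest in control sheep 1, at 6.82 and 29.0 RPKM, while PSMB5 and PSMB7 stand at 41.7 and 82.8 RPKM in that library.

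The base of the 19S cap is a ring of ATPases that unfolds the target and threads it into the core. Of the 5 measured, PSMC3, PSMC4 and PSMC5 were higher with linseed in all 3 sheep and PSMC6 was lower in all 3. PSMC3 had 128, 149.8 and 113 RPKM with linseed and 36.4, 52.7 and 51.0 RPKM under control. The groups did not overlap, with means of 130.2 ± 18.7 and 46.7 ± 8.98 RPKM in linseed and control libraries (SD, n = 3 each) and a log2 change of 1.47 ± 0.57 (adjusted p 0.285). PSMC5 and PSMC4 had log2 changes of 1.33 ± 0.56 and 1.05 ± 0.58, and PSMC2 one of −0.36 ± 0.62.

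PSMC6 was lower with linseed where PSMC3, PSMC4 and PSMC5 of the same ring were higher. It had 0.709, 4.69 and 21.5 RPKM in linseed sheep 1, 2 and 3, against 38.4, 33.3 and 32.1 RPKM in control sheep 1, 2 and 3. All control libraries were alike and all linseed libraries lower, sheep 1 the most and sheep 3 the least, with within-sheep log2 differences of −4.53, −2.59 and −0.56. The log2 change was −2.56 ± 0.85, with an adjusted p of 0.263, and 0.0543 with the sheep as a block. After quantile normalization it stood at −2.68, after length correction at −2.59, with milk proteins left out at −3.02, and without sheep 1 at −1.57. With milk proteins left out and the sheep as a block its adjusted p was 0.0446, under the threshold. That setting called 500 of the 15891 tested transcripts lower, and 2 of the 60 members were among them. The PSMC6 linseed values rested on 7 reads in sheep 1 and 56 in sheep 2. A further, much less abundant PSMC6 transcript (XM_012180724.1) had a log2 change of −0.18 ± 0.66.

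The ATPases occur in equal copies in the assembled ring, and their transcripts were spread more widely in linseed libraries than in control libraries, mostly through PSMC6. The highest of the 5 was 181, 32.0 and 5.23 times the lowest in linseed sheep 1, 2 and 3, against 1.25, 1.97 and 2.0 times in control sheep 1, 2 and 3. PSMC6 was the lowest of the 5 in every linseed library, and without it the ratios were 5.52, 4.48 and 1.77 with linseed and 1.25, 1.37 and 2.0 under control. The 12 PSMD genes were also spread more widely with linseed, by 399, 182 and 20.2 times, against 15.6, 13.8 and 7.71 times under control.

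**Figure D3:**
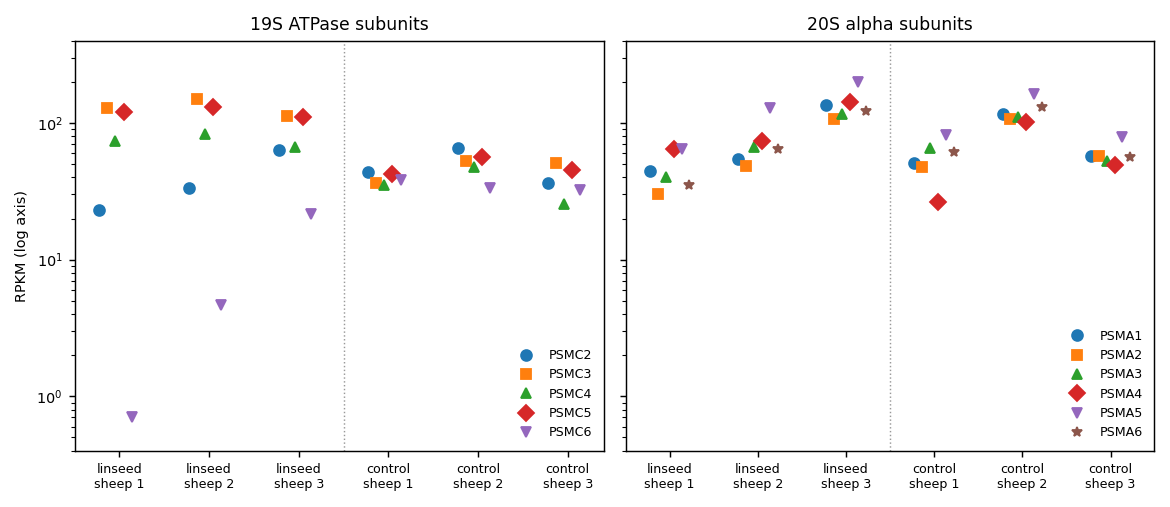
RPKM on a log axis of each measured 19S ATPase and 20S alpha subunit in the 6 libraries, linseed left of control. The 19S ATPases span 181-fold in linseed sheep 1, with PSMC6 at 0.709 RPKM, and 1.25-fold in control sheep 1.

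The other 19S subunits form the lid, which removes the ubiquitin chain, and the scaffold and receptors of the cap. Of 12 measured PSMD genes, 4 were higher in all 3 sheep (PSMD4, PSMD7, PSMD8 and PSMD13) and PSMD12 was lower in all 3, for a median of −0.26 over the group. PSMD4, a ubiquitin receptor, stood at 104, 116 and 75.3 RPKM with linseed and at 33.2, 48.5 and 21.0 RPKM under control. The groups did not overlap, and the log2 change was 1.55 ± 0.60 (adjusted p 0.285); a further PSMD4 transcript gave 1.78 ± 0.57. PSMD8, a lid subunit with the most reads of any member, had a log2 change of 1.5 ± 0.60.

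PSMD12, a lid subunit, had 5.65, 7.12 and 20.7 RPKM with linseed and 42.9, 22.3 and 25.1 RPKM under control. All linseed libraries were below all control libraries, with sheep 3 nearly level, and the log2 change was −1.5 ± 0.65 (adjusted p 0.308). PSMD5, a chaperone that binds the ATPase ring during assembly, had 0.777, 1.93 and 11.3 RPKM with linseed and 8.41, 11.4 and 9.10 RPKM under control. Linseed sheep 3 lay within the control range and the other linseed libraries, on 8 and 24 reads, far below it, with a log2 change of −1.40 ± 0.74. PSMD14, the deubiquitinase of the lid, had a change of −0.71 ± 0.76, and its lid partner PSMD7 one of 0.52 ± 0.58. The remaining log2 changes were −0.34 for the scaffold subunit PSMD1, 0.23 for the scaffold subunit PSMD2, −0.18 for PSMD6, −0.44 for the assembly chaperone PSMD9, −0.57 for PSMD11 and 0.51 for PSMD13. None of these passed the test.

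The activators cap the core in place of the 19S complex. PSME1 and PSME2 form the interferon-inducible PA28 ring, and both were higher with linseed in all 3 sheep. PSME1 had 288, 305 and 349 RPKM with linseed and 32.6, 209 and 138 RPKM under control. Its groups did not overlap, and control sheep 1 was again the lowest; the log2 change was 1.66 ± 0.73 (adjusted p 0.313). PSME2 had a log2 change of 1.15 ± 0.83, with a difference in sheep 2 of 0.05. The nuclear activators PSME3 and PSME4 were both lower in all 3 sheep. PSME4, known as PA200, had 1.87, 1.66 and 4.56 RPKM with linseed and 8.58, 3.76 and 9.32 RPKM under control. Linseed sheep 3 lay above control sheep 2, so the groups overlapped, and the log2 change was −1.16 ± 0.61; that of PSME3 was −0.85 ± 0.61.

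The PSMG chaperones guide assembly of the alpha ring. PSMG3 and PSMG4, which work as a pair, were both higher with linseed in all 3 sheep. PSMG4 had 305, 189 and 116 RPKM in linseed sheep 1, 2 and 3, against 24.1, 74.9 and 45.9 RPKM in control sheep 1, 2 and 3. PSMG3 had 82.1, 55.5 and 44.0 RPKM with linseed and 13.4, 24.6 and 18.98 RPKM under control. Neither pair of groups overlapped, and both genes were highest in linseed sheep 1 and lowest in control sheep 1. The log2 changes were 2.08 ± 0.66 for PSMG4 (adjusted p 0.263) and 1.61 ± 0.59 for PSMG3 (adjusted p 0.272). The PSMG4 transcript is 364 nt long, the shortest of the members, and its change was 1.38 after length correction. PSMG2, which acts in another chaperone pair, had a change of −1.11 ± 0.84.

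The E2 enzymes had a lower median than the proteasome genes, a difference that was not tested. Of 21 measured, 4 were higher with linseed in all 3 sheep and 8 were lower in all 3, and their median log2 change was −0.36, against 0.42 for the 39 PSM genes. The ubiquitin E2 group leaves out the cell cycle enzymes and those for ubiquitin-like proteins. Among its 17 measured genes, 3 were higher in all 3 sheep and 8 were lower in all 3. The lower 8 were UBE2B, UBE2D3, UBE2E3, UBE2H, UBE2J1, UBE2Q2, UBE2R2 and UBE2W, and the higher 3 were UBE2D4, UBE2G2 and UBE2L3.

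UBE2Q2 had 1.04, 4.52 and 2.26 RPKM in linseed sheep 1, 2 and 3, against 21.9, 5.89 and 10.6 RPKM in control sheep 1, 2 and 3. Its linseed libraries were all below its control libraries, narrowly in sheep 2, with a log2 change of −1.88 ± 0.67 (adjusted p 0.266). Less abundant UBE2Q2 transcripts had log2 changes of −1.10 ± 0.67 and −0.89 ± 0.56, and their groups overlapped. UBE2J1, a membrane-anchored enzyme of endoplasmic reticulum-associated degradation, had 2.16, 5.58 and 3.17 RPKM with linseed and 33.8, 7.47 and 7.66 RPKM under control. Here the control value of sheep 1 stood far above the rest, and the log2 change was −1.63 ± 0.70 (adjusted p 0.305). UBE2B, which acts in DNA damage tolerance, had 3.09, 10.9 and 68.9 RPKM with linseed and 60.8, 45.2 and 119 RPKM under control. Each linseed library was below the same animal's control library, although linseed sheep 3 exceeded control sheep 1 and 2; the log2 change was −2.22 ± 0.93 (adjusted p 0.299). With milk proteins left out and the sheep as a block it was −2.60, with an adjusted p of 0.0487, under the threshold. In that setting 500 of the 15891 tested transcripts were called lower, 2 of the 60 members among them. UBE2W, which modifies protein N-termini, had 0.197, 0.626 and 4.36 RPKM with linseed and 5.21, 2.86 and 13.6 RPKM under control. It was lower in each animal, with overlapping groups and a log2 change of −1.69 ± 0.74 (adjusted p 0.308), and linseed sheep 1 held 6 reads.

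UBE2D4 reached a mean of 1 RPKM only through its linseed libraries, so its difference supports nothing here, although it is counted among the members higher and above. It had 5.41, 4.89 and 2.11 RPKM with linseed and 0.506, 1.44 and 0.6 RPKM under control, on 101 reads in all, and its control mean was 0.85 RPKM. Its log2 change was 1.44 ± 0.55, and it was 0.90 after length correction. Its 5 transcripts summed to 19.1, 14.3 and 5.54 RPKM with linseed and 2.10, 5.01 and 5.93 RPKM under control, which overlapped, and transcript XM_015102197.1 had a log2 change of −0.34 ± 0.71. UBE2D3, of the same family of broadly acting enzymes, had a change of −0.25 ± 0.53. The UBE2D, UBE2E and UBE2V genes have close copies, so their values depend on how the authors divided shared reads. UBE2G2, which acts in endoplasmic reticulum-associated degradation as UBE2J1 does, had a log2 change of 1.00 ± 0.57. The other E2 of that route, UBE2J2, had a log2 change of 0.21 ± 0.60. A less abundant UBE2G2 transcript had a log2 change of 0.37 ± 0.57, and its groups overlapped.

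UBE2N builds lysine-63-linked chains with UBE2V1 or UBE2V2, which lack the catalytic cysteine. UBE2V1 and UBE2V2 had log2 changes of −1.15 ± 0.75 and −1.47 ± 0.87, both lower in sheep 1 and 2 only. The UBE2N row held 26 reads over all libraries, the fewest of the measured members, and its change was 0.38 ± 0.51. Like UBE2D4, UBE2N reached a mean of 1 RPKM only through its linseed libraries, so its change supports nothing here. Its means were 1.39 RPKM with linseed and 0.742 RPKM under control. UBE2K, which builds chains that target proteins to the proteasome, had a log2 change of −1.27 ± 0.71, and UBE2H one of −1.21 ± 0.72. A less abundant UBE2K transcript had a log2 change of 0.48 ± 0.60. The remaining changes were −0.27 for UBE2E2, −0.36 for UBE2E3, −0.58 for UBE2R2, a partner of cullin ligases, and 0.62 for UBE2L3, a partner of HECT and RBR ligases.

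UBE2C and UBE2S serve the anaphase-promoting complex, the ligase that drives exit from mitosis: UBE2C starts the chain and UBE2S extends it. UBE2S had 80.9, 119 and 71.0 RPKM in linseed sheep 1, 2 and 3, against 20.5, 41.3 and 19.6 RPKM in control sheep 1, 2 and 3. The groups did not overlap, the within-sheep log2 differences of 1.93, 1.5 and 1.80 were alike, and the log2 change was 1.75 ± 0.60 (adjusted p 0.264). UBE2C differed in direction between animals, at −1.78, −0.53 and 2.19 in sheep 1, 2 and 3, for a change of −0.04 ± 0.87, on 2 reads in linseed sheep 1. Of the other cell cycle genes, 5 of 10 listed were measured, none was higher in all 3 sheep and 2 were lower in all 3, among them PCNA, the replication clamp, at −1.85 on the log2 scale.

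UBE2F carries NEDD8, a protein of the ubiquitin family that switches on cullin ligases. The most abundant UBE2F transcript had a log2 change of 0.51 ± 0.62, and the other two, both higher in all 3 sheep, had changes of 1.42 ± 0.61 and 1.63 ± 0.70. How the authors divided reads among transcripts of a gene is not given in the sources used here, so these transcript values are uncertain. In all, 13 members had more than 1 transcript in the table.

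The members' direction differed between classes of transcript length. Of 14 members under 1000 nt, 9 were higher and none was lower in each animal, and their median log2 change was 0.88, beside 0.57 over all tested transcripts of that length. Of 21 members from 1000 to 1500 nt, 7 were higher and 1 lower, with a median of 0.42, beside 0.25. Of 12 from 1500 to 2500 nt, 5 were higher and 2 lower, with a median of −0.07, beside 0.00. Of 13 at 2500 nt or more, none was higher and 9 were lower, with a median of −1.16, beside −0.40. The members had a median length of 1363 nt, against 2297 nt over all tested transcripts, so more of them fell in the classes where transcripts in general stood higher. After length correction the median of the members was −0.22, beside −0.04 over all tested transcripts, the beta ring stood at 0.28, the 19S ATPases at 0.83, the immunoproteasome pair at 1.77 and the ubiquitin E2 group at −0.77. PSMC6, at 1998 nt, and PSMB10, at 1560 nt, were near the middle of the range of lengths.

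**Figure D4:**
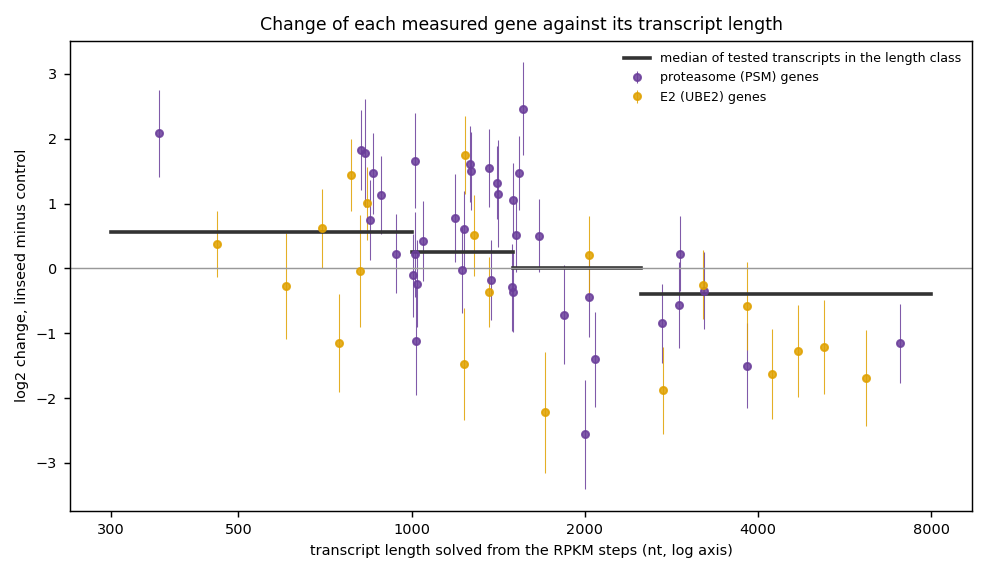
Log2 change, linseed minus control, of 59 of the 60 measured members (points, with SE bars) against transcript length on a log axis, with the median of all tested transcripts in each of 4 length classes. Members under 1000 nt have a median of 0.88 and members of 2500 nt or more one of −1.16; PSMB10 and PSMC6 lie far above and below the class medians.

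The other genes of the pathway gave no call either. Of 4 ubiquitin genes listed, 3 were measured and 2 were higher in all 3 sheep; UBB, which encodes a ubiquitin chain, had a log2 change of 0.24. Of 6 measured E1 enzymes none was higher and 3 were lower in all 3 sheep, with UBA6 at −1.55. Of 11 measured shuttles, adaptors and assembly factors, 2 were higher and 4 lower. The proteasome's ubiquitin receptor ADRM1 was one of the higher ones, at 127, 109 and 93.6 RPKM with linseed and 50.95, 38.3 and 47.4 RPKM under control, without overlap and with a log2 change of 1.25. The maturation factor POMP stood level, at means of 93.8 ± 42.7 RPKM with linseed and 96.3 ± 37.99 RPKM under control (SD, n = 3 each). Of 8 deubiquitinases none was higher and 4 were lower, of 6 cullin ligase subunits none was higher and 2 were lower, and of 5 other SUMO and NEDD8 genes 1 was higher and 1 lower. The medians of these lists, in the order given, were 0.69, −0.81, −0.69, −0.74, −0.41 and −0.60.

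Genes that use or induce the immunoproteasome differed among themselves. Of 8 measured genes of class I antigen presentation, 2 were higher and 2 lower in each animal, for a median of −0.06 on the log2 scale. The class I light chain B2M had 349.9, 919.9 and 3740 RPKM with linseed and 1581, 4064 and 5136 RPKM under control, with a log2 change of −1.59, and the peptide transporter TAP1 one of 0.34. Of 12 interferon signalling genes 1 was higher and 4 were lower throughout, for a median of −0.24. The transcription factor IRF1, an inducer of immunoproteasome genes, had 51.3, 77.8 and 98.5 RPKM with linseed and 7.06, 28.3 and 172 RPKM under control, and a log2 change of 1.11. In sheep 3, B2M, TAP1 and IRF1 were all lower with linseed, while PSMB8 and PSMB10 were higher.

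Per length, the PSM genes together held 0.37, 0.45 and 0.65% of all RPKM in linseed sheep 1, 2 and 3, against 0.21, 0.37 and 0.37% in control sheep 1, 2 and 3. With milk protein genes left out of the totals they held 0.569, 0.633 and 0.658% in linseed libraries, against 0.511, 0.626 and 0.399% in control libraries, so sheep 1 and 2 were then close to level. The groups overlapped under both totals. The 21 UBE2 genes held 0.0318, 0.0495 and 0.0994% in linseed libraries, against 0.0555, 0.0521 and 0.0957% in control libraries, and these overlapped.

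The 4 members under 1 RPKM were PSMA8, a testis subunit, PSMB11, a thymus subunit, UBE2U and PSMC3IP, a recombination factor that carries a proteasome symbol without being a subunit. PSMB11 and UBE2U were at 0 in 5 of 6 libraries. A further 20 genes that the rule names were not matched to a row and are not analysed here: PSMA7, PSMB9, PSMC1, PSMD3, PSMD10, PSME3IP1, PSMF1, PSMG1, UBE2A, UBE2D1, UBE2D2, UBE2E1, UBE2G1, UBE2L6, UBE2M, UBE2O, UBE2Q1, UBE2QL1, UBE2T and UBE2Z.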

How the data were processed

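The authors deposited RPKM values for 49705 RefSeq transcripts in a single table, written with decimal commas. Per the submitters' processing notes, Trimmomatic 0.33 trimmed the reads. The aligner, build and counting tool were not given in the sources used here. Groups were read from the letter in each sample's title with the series design. For names alone, accessions were looked up in RefSeq's gene list for ARS-UI_Ramb_v3.0, which may differ from the authors' build: 15836 transcripts (31.9%) matched.

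The 15891 transcripts that averaged 1 RPKM or more entered a limma 3.58.1 fit (R 4.3.3) on log2(RPKM + 1), with a mean-variance trend, Benjamini-Hochberg adjustment and a threshold of 0.05. Log2 changes are linseed minus control and understate the change of low transcripts. The sheep as a block was the alternative, with 2 residual degrees of freedom in place of 4. Libraries with the same number in their titles were taken as the same animal, and deviations of these paired libraries correlated at 0.18, 0.25 and 0.40. P-values without the block measure the spread between libraries within the groups and ignore the pairing. Those with the block measure the spread of the differences within these 3 animals. Ratios were tested by exact permutation over the 20 arrangements of the libraries, which ignores the pairing, and by sign flips within animals, which keep it.

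RPKM steps gave library totals, transcript lengths and reads, which summed to 99.4 to 99.8% of the totals. One read on a transcript of 1000 nt was worth 0.202 RPKM in the shallowest library and 0.0442 RPKM in the deepest. The median measured member held 5561 reads in all libraries together. The length correction subtracted a lowess curve (span 0.3) of each library's deviations on log2 length.

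Every measured member is named, except 1 that is not reported here. Values by library are given for the immunoproteasome subunits and their counterparts, for the 8 members of smallest p in each direction and for the smallest p of each role group. ADRM1, B2M, IRF1, POMP, UBB, TAP1, PCNA and UBA6 were singled out from the lists after their values were seen. The members and lists were chosen with earlier results of these data known. No member's sequence is shown.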

Additional observations from a re-analysis of the deposited data

How the results depend on the processing

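Leaving out any library or sheep gave 0 calls among members and among all tested transcripts, in either direction, and the median log2 change of the members lay between −0.34 and 0.44. The sheep as a replicate block gave 203 of the 15891 transcripts higher and 213 lower and by itself changed no member's call. With gene sums it gave 224 and 228. With milk proteins left out it gave 137 of the 15891 transcripts higher and 500 lower. Among those lower calls were 2 of the 60 members, PSMC6 and UBE2B. In 8 of the 11 settings fitted with the block no transcript was called: the other pseudocount, both other filters, quantile, median-of-ratios and both length corrections, and voom. Array weights, which put a weight of 25.6 on linseed sheep 2, gave 2919 of the 15891 tested transcripts higher and 2542 lower. Of the 60 members, 12 were called higher and 12 lower there, beside those calls over all transcripts. The cause was not tested. Some members turned sign. Under quantile normalization, PSMA5 came to −0.23, PSMB4 −0.29, PSMB7 −0.0055, PSMD2 −0.069 and UBE2C 0.021. With milk proteins left out, PSMA5 and UBE2J2 came to −0.12 and PSMB4 and PSMD2 to −0.11. After length correction, PSMA5 came to −0.21, PSMB4 −0.24, UBE2D3 0.0034 and UBE2N −0.30, and with both, PSMA5 −0.30, PSMB4 −0.325, PSMB7 −0.075, UBE2L3 −0.047 and UBE2N −0.18; the block left all of these values as they were. Array weights gave PSMA5 −0.032, PSMB4 −0.13 and UBE2F −0.059. Voom on recovered reads gave PSMA1 0.028 and UBE2C 0.23, and with the block UBE2C 0.50 and UBE2E2 0.13. Leaving out a library or sheep gave ranges of −0.65 to 0.51 for PSMA1, −0.88 to 0.12 for PSMA2, −0.71 to 0.27 for PSMA3, −0.34 to 0.65 for PSMA5, −0.90 to 0.20 for PSMA6, −0.057 to 0.55 for PSMB4, −0.073 to 0.71 for PSMB7, −0.024 to 0.47 for PSMD2, −0.69 to 0.18 for PSMD6, −1.03 to 0.028 for PSMD9, −1.05 to 0.053 for PSMD11, −1.48 to 0.043 for PSMD14, −1.15 to 0.95 for UBE2C, −1.26 to 0.65 for UBE2E2, −0.046 to 0.79 for UBE2F, −0.088 to 0.61 for UBE2J2, −0.034 to 0.69 for UBE2N and −0.11 to 2.13 for the ratio of PSMB8 to PSMB5. The count test on recovered reads with edgeR was not run. Depth limits UBE2N and UBE2D4, and PSMC6, PSMD5, UBE2C, UBE2E2, UBE2E3 and UBE2W in linseed sheep 1, each under 10 reads in at least 1 library.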
